A study of Mus musculus with 9 samples.

Results

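The mitochondrial respiratory chain of group 2 innate lymphoid cells (ILC2s) was followed through the messenger RNAs of its nuclear-encoded genes, complex by complex. Genes were taken by symbol from a count table of 20732 mouse genes. A gene was a member when its GRCm38 symbol began with Ndufa, Ndufb, Ndufc, Ndufs or Ndufv, was Sdha, Sdhb, Sdhc or Sdhd, began with Uqcr, began with Cox and a number from 4 to 8, or began with Atp5. After 10 pseudogenes were left out, 91 genes remained, of which 87 had enough counts to be tested among 14405 tested genes. The 91 held 36 subunits of complex I, 4 of complex II, 8 of complex III, 18 of complex IV and 16 of complex V. The other 9 matched by symbol but are not subunits: Ndufaf1 to Ndufaf8, which help to assemble complex I, and Atp5s. The rule itself used no measured value, but it was chosen with earlier results of these data known.

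The cells came from pancreas of C57BL6/J mice that had received 200 ng IL-33, a cytokine that activates ILC2s through the receptor ST2, or PBS on days 0 and 1, with harvest on day 5. They were sorted as live cells with CD45 and KLRG1 on the surface and without CD3, B220 or lineage markers, and their RNA was sequenced in bulk. The sample labels give 5 IL-33 libraries and 4 PBS libraries (titled naive), whereas the design text of the series gives 4 IL-33 and 5 PBS mice, and the labels were followed. No label says that each library came from a mouse of its own, so every p-value measures the spread between libraries. In bulk RNA, more cells of one kind and more RNA per cell cannot be told apart.

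The respiratory chain sits in the inner mitochondrial membrane. Complex I takes electrons from NADH and complex II takes them from succinate, both pass them through ubiquinone to complex III, cytochrome c carries them on to complex IV, which reduces oxygen, and complexes I, III and IV pump protons. Complex V, the ATP synthase, lets the protons return through its membrane rotor (FO) and makes ATP in its soluble head (F1). Complexes I, III, IV and V combine subunits from the nucleus with subunits translated inside mitochondria from mitochondrial DNA (mtDNA), whereas complex II is wholly nuclear. Lymphocytes that divide and secrete are known to enlarge their mitochondrial capacity.

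Promoter windows of 8 members are shown, chosen by their calls described below. In complexes II and V, members that were higher with IL-33 stand beside a member not called, whereas the complex IV members shown were all called higher. Each runs from 250 bases before to 50 bases after the start of the gene on its own strand, 5′ to 3′, from RefSeq on GRCm38.p6. Capitals mark matches to letters known for 3 factors of respiratory genes, searched on both strands: GCGCA, any base and then GCGC for NRF1, CCGGAAG for ETS factors such as GABPA, and AAGATGG for YY1. Atp5g3, Atp5g2 and Atp5g1 encode the same ring subunit of complex V and lie at chr2:73911277-73911576 (minus strand), chr15:102670998-102671297 (minus strand) and chr11:96075582-96075881 (minus strand). Cox8a, Cox6a1 and Cox5a encode subunits of complex IV and lie at chr19:7217567-7217866 (minus strand), chr5:115348909-115349208 (minus strand) and chr9:57520982-57521281 (plus strand). Sdhd and Sdha encode a membrane anchor and the flavoprotein of complex II and lie at chr9:50603800-50604099 (minus strand) and chr13:74350191-74350490 (minus strand).
Atp5g3: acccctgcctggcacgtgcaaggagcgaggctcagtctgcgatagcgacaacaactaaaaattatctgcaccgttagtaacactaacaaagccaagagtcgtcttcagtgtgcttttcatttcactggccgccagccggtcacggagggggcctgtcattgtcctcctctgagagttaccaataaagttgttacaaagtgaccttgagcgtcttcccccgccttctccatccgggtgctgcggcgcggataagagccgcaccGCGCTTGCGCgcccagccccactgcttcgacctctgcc
Atp5g2: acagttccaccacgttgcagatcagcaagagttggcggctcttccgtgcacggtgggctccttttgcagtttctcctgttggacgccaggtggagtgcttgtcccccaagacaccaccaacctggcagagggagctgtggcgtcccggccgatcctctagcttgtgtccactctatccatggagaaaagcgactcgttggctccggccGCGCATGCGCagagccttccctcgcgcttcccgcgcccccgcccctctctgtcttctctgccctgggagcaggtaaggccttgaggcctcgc
Atp5g1: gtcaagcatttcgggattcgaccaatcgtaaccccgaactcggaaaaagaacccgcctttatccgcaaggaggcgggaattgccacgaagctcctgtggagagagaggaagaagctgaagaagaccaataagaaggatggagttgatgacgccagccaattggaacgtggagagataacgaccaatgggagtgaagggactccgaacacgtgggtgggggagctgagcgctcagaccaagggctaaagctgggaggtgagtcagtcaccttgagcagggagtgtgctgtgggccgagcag
Cox8a: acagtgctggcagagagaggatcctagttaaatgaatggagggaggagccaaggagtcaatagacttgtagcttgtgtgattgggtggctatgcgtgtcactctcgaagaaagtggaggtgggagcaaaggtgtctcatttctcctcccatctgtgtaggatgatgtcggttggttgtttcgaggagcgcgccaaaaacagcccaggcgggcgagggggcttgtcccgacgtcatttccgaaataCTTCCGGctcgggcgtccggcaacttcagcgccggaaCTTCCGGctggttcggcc
Cox6a1: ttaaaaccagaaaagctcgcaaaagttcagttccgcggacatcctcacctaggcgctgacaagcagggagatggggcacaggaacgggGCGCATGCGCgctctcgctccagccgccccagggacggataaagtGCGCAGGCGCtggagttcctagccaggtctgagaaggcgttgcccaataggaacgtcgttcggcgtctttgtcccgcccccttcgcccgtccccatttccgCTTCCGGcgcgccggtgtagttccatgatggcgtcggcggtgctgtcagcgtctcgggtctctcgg
Cox5a: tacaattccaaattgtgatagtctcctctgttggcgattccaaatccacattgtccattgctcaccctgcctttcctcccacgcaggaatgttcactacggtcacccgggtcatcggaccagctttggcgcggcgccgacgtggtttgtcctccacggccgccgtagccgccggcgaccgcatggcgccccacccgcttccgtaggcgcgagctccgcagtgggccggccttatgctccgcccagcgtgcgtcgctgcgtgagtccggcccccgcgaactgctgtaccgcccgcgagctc
Sdhd: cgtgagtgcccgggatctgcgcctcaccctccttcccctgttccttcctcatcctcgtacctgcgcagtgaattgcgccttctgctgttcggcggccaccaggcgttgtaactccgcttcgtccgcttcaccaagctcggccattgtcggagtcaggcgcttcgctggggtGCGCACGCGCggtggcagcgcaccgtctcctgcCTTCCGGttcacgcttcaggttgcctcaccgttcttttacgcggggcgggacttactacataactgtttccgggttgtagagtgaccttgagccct
Sdha: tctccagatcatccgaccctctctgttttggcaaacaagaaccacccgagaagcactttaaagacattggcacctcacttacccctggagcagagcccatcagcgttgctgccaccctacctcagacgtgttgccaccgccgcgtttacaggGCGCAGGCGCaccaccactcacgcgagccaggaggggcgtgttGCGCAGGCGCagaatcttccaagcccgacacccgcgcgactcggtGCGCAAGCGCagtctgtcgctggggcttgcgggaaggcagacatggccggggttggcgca

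In these windows Atp5g3 and Atp5g2 each held 1 NRF1 match, and Atp5g1 held none of the 3 motifs. Cox8a held 2 ETS matches, Cox6a1 held 2 NRF1 matches and 1 ETS match, and Cox5a held none. Sdhd held 1 NRF1 and 1 ETS match, and Sdha held 3 NRF1 matches. A promoter was found in the table for 73 of the 91 members, 66 of them subunits. The NRF1 letters stood in 17 of the 66 subunit genes (25.8%), against 5.19% of 27025 genes and 7.17% of 17491 protein-coding genes in the table. The share was 26.3% among the 38 subunit genes called higher with IL-33 and 25.9% among the 27 tested and not called. The ETS letters stood in 24.2% of the subunit genes, against 9.93% of all genes and 12.9% of protein-coding genes, and in 13 of the 38 called higher (34.2%) and 3 of the 27 not called (11.1%). YY1 letters stood in 15.2% of subunit genes, against 7.28% of all genes and 7.18% of protein-coding genes. By complex, the NRF1 letters were in 6 of 13 complex V genes, 1 of 13 complex IV genes and 7 of 32 complex I genes. No match overlapped a match of another motif, and no test was made on these shares. Members with no window in the table included Atp5a1, Atp5f1, Atp5mpl, Atp5s, Cox4i1, Cox4i2, Cox6a2, Cox6c, Ndufa2, Ndufa4l2, Ndufaf6, Ndufb9, Ndufs1, Sdhc, Uqcrb, Uqcrc2 and Uqcrq.

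Levels are given as CPM, counts scaled to a common library total and adjusted with TMM factors for library composition. Tests are edgeR quasi-likelihood tests over all 14405 genes with Benjamini-Hochberg adjustment, two-sided, with calls at an adjusted p below 0.05. Total counts per library lay between 14216976 and 21020023. All 9 ILC2 markers, among them Klrg1 and the ST2 gene Il1rl1, had counts in every library. Gata3, the lineage-defining factor, had 3113, 3384, 6803, 2988 and 3863 CPM in the IL-33 libraries, against 4465, 4729, 5125 and 3751 CPM in the PBS libraries. Gata3 was 1 of 4 markers not called. Klrg1, Il5 and Il13 were called higher, and Icos and Il7r lower, with log2 fold changes of -1.50 and -1.28. Over all tested genes 25.2% were called in either direction. PBS replicate 4 stood apart, with 35.6% of its counts in the acinar list (secretory enzymes of the exocrine pancreas) and a TMM factor of 0.532. Acinar genes took 0.308 to 10.2% in the IL-33 libraries and 0.113 to 6.44% in the other PBS libraries. Erythroid genes took 0.0424 to 0.365% of counts with IL-33 and 0.0142 to 0.0343% with PBS, and beta-globin RNA was high in IL-33 replicates 1, 2 and 3. B cell genes (0.00666 to 0.0104% against 0.000335 to 0.00286%) and mast cell and basophil genes (0.0102 to 0.0365% against 0.00174 to 0.00486%) were also higher in all IL-33 libraries. All 8 cycling genes were called higher, and they took 0.133 to 0.217% of counts with IL-33, against 0.0119 to 0.0205% with PBS. What these differences contribute to the results was not tested.

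With IL-33, 49 of the 87 tested members were called higher and 1 was called lower, beside 13.7% of all tested genes called higher and 11.6% called lower. No subunit was called lower by edgeR. At an unadjusted p below 0.05 the count lower was 1, and the DESeq2 Wald test called 1 lower and limma voom 0. By complex, 16 of 36 subunits of complex I (44.4%), 2 of 4 of complex II, 4 of 8 of complex III, 11 of 14 tested of complex IV (78.6%) and 15 of 16 of complex V (93.8%) were called higher, and the difference between complexes was not tested. Median log2 fold changes were 0.41 in complex I, 0.60 in complex II, 0.58 in complex III, 1.01 in complex IV and 0.92 in complex V, beside -0.05 over all tested genes. The 12 ubiquitous subunits of complex IV alone had a median of 0.89, and the 1.01 also takes in Cox7a1 and Cox6b2, tissue forms with few counts. When genes had to reach 5 CPM in 4 or more libraries, complex IV had a median of 0.85 and complex V of 0.89. In 50 members every IL-33 library lay above every PBS library, which held for 15.3% of all tested genes. Of the 9 genes that are not subunits, Ndufaf7 was called higher and Atp5s lower. Without PBS replicate 4 the counts called higher were 16, 2, 4, 11 and 15 for complexes I to V, beside 13.2% of all genes. With IL-33 replicates 1, 2 and 3 left out, the libraries high in beta-globin, they were 4, 2, 2, 6 and 9, beside 4.75% of all genes called higher in that fit of 2 against 4 libraries. With library size alone in place of TMM they were 5, 1, 3, 7 and 11, and 9.25% of all genes were called higher and 4.47% lower. Of the 50 members called, 44 kept the call whichever single library was left out, and 6 lost it at least once, namely Ndufa2, Ndufa3, Ndufa4, Ndufaf7, Ndufc1 and Ndufs4, at adjusted p-values between 0.0515 and 0.109.

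**Figure D1:**
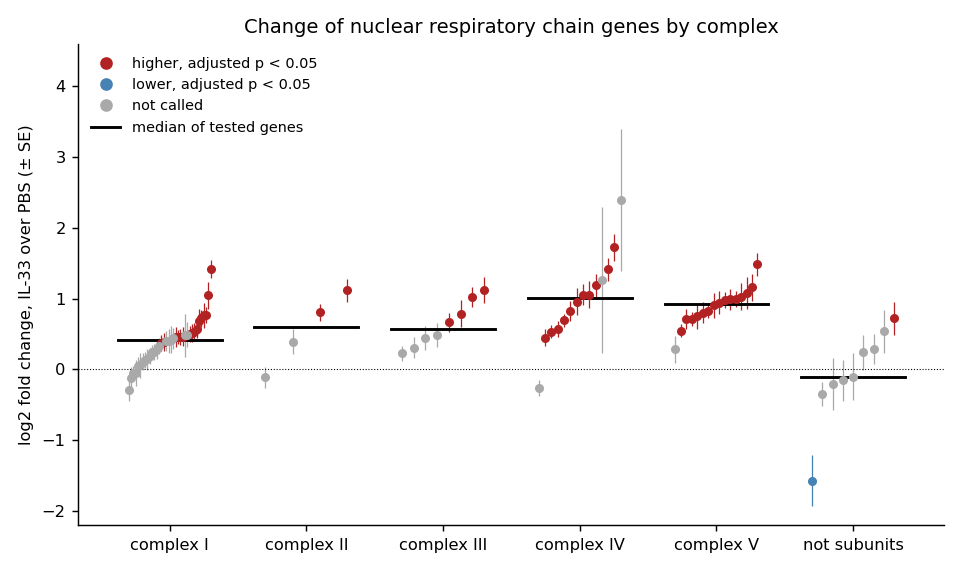
Log2 fold change, IL-33 over PBS, of the 87 tested members by complex, with standard errors as vertical bars, calls by colour and the median of each group as a black line. Complexes IV and V sit highest, with medians of 1.01 (0.89 over the 12 ubiquitous subunits) and 0.92, and Atp5s among the genes that are not subunits is the single member called lower.

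Summed CPM was also compared between the groups. Complex V subunits together had 5367, 5869, 4666, 5549 and 5389 in the IL-33 libraries, against 2568, 2560.5, 3216 and 3065 in the PBS libraries, a ratio of means of 1.88. Complex IV subunits summed to 3871, 4169.7, 3458, 4137 and 3792 in the IL-33 libraries, against 1909, 1773, 2560.4 and 2255 in the PBS libraries, a ratio of 1.83. The ratios were 1.49 for complex III, 1.43 for complex II and 1.28 for complex I, whose sums were 5586, 6268, 5956, 5801 and 5296 in the IL-33 libraries, against 4462, 4061, 4867 and 4609.7 in the PBS libraries. For each of the 5 complexes, the lowest IL-33 library lay above the highest PBS library. All subunits together took 1.95% ± 0.18 of counts with IL-33 and 1.13% ± 0.33 with PBS (SD, n = 5 and 4), with PBS replicate 4 at 0.651%. Per kilobase of transcript, the mean level of a subunit was 433 CPM in complex III, 385 in V, 336 in IV, 204 in I and 174 in II with IL-33, and 286, 209, 181, 158 and 108 CPM with PBS. The order of these means was the same in both groups. However, the mean of complex IV takes in 6 tissue forms with few counts, which lower it. With IL-33 they had at most 5.04 CPM per kilobase (Cox7a1). The place of complex IV, and the sameness of the order between groups, therefore depend on counting them. The ratios of these per-kilobase means were 1.86 for complex IV, 1.84 for V, 1.61 for II, 1.51 for III and 1.30 for I, which places IV and V, and II and III, the other way round from the summed CPM.

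**Figure D2:**
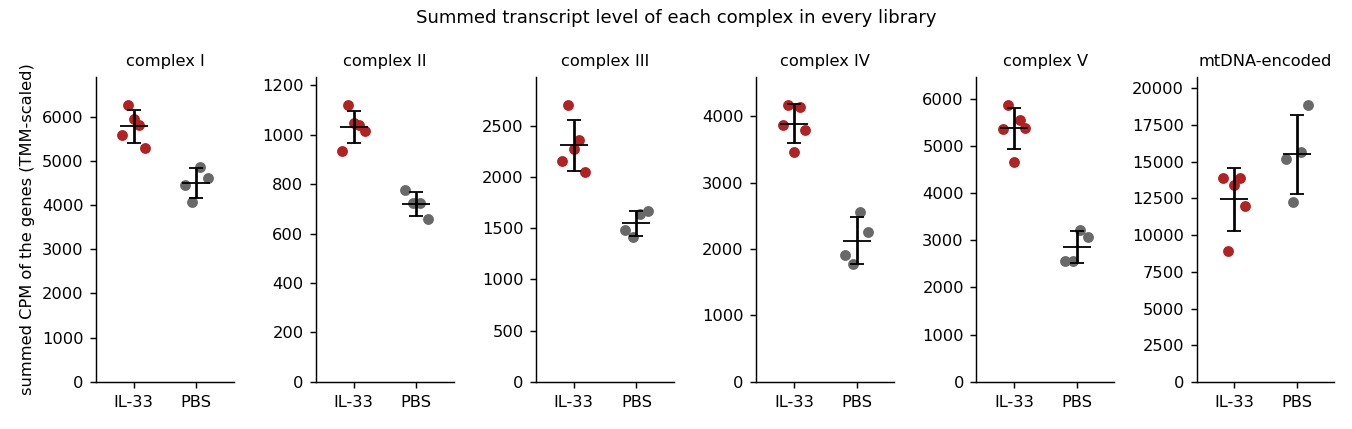
Summed CPM (TMM-scaled) of the members of each complex and of the 13 mtDNA-encoded subunits, 1 point per library with mean and SD, IL-33 left of PBS. The IL-33 libraries lie above all PBS libraries for complexes I to V, whereas the groups overlap for the mtDNA-encoded subunits.

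Transcript length moved with the comparison across the whole table. All tested genes, divided into 5 bins of equal size by length, had median log2 fold changes of 0.38 in the shortest bin and -0.52 in the longest. The members are short, with a median of 763 bases beside 2279 over all tested genes, and 53 of the 87 lay in the shortest bin. In that bin the members' median was 0.68 and 33 of the 53 were called higher, against 22.5% of all genes there. Other genes of 546 to 1307 bases, the quartiles of the members' lengths, were 2598 in number and had a median of 0.31, and 24.2% of them were called higher. After removal of each library's trend with length and GC content, 5 complex I, 1 complex II, 3 complex III, 8 complex IV and 11 complex V subunits were called higher, beside 11.9% of all genes, and the medians were 0.01, 0.47, 0.19, 0.49 and 0.54. The complex I subunits still called higher were Ndufc2, Ndufa11, Ndufa9, Ndufa10 and Ndufv2. Ndufs8 (0.20, adjusted p = 0.321) and Ndufb7 (0.15, adjusted p = 0.589) were not called by edgeR there. In that fit 6 complex I subunits were called lower, namely Ndufb4, Ndufb10, Ndufa6, Ndufa7, Ndufs3 and Ndufs7, as were Cox7a2l, Ndufaf8 and Atp5s. These 9 of 87 members (10.3%) lie near the 10.1% of all genes called lower in that fit. The part of length in the main result was not tested further.

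**Figure D3:**
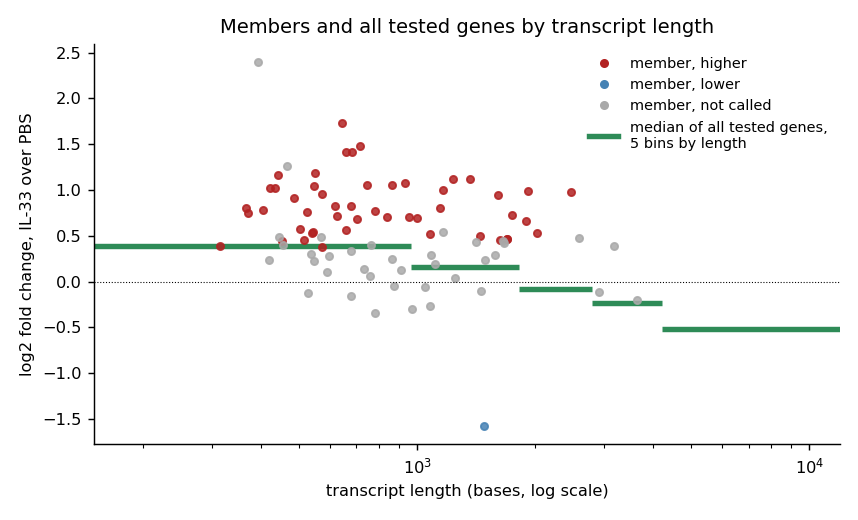
Log2 fold change, IL-33 over PBS, against transcript length in bases on a log scale. Points are the 87 tested members by call, and green lines give the median of all tested genes in each of 5 bins of length, from 0.38 in the shortest to -0.52 in the longest.

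In complex I the calls were spread over both kinds of subunit. The core subunits of its peripheral arm carry electrons from NADH to ubiquinone, and calls among them were all higher. Its 29 accessory subunits gave 13 calls, all higher, beside 13.7% of all tested genes called higher. Ndufs8, a core iron-sulfur subunit near the quinone site, had 219, 241, 224, 231 and 198 CPM in the IL-33 libraries, against 134, 124, 115 and 151 CPM in the PBS libraries. All IL-33 values lay above all PBS values, with a log2 fold change of 0.77 ± 0.11 (SE, adjusted p = 0.00113) by edgeR. Ndufv2, an iron-sulfur subunit of the NADH-oxidising module, was called higher by 0.46 ± 0.11 (SE, adjusted p = 0.0161) by edgeR. Ndufv1, which binds NADH and FMN, was not called, with 145, 193, 155, 133 and 171 CPM in the IL-33 libraries, against 109, 80.1, 148 and 140.4 CPM in the PBS libraries. Its groups overlapped, and edgeR gave 0.42 ± 0.19 (SE, adjusted p = 0.137). Ndufs1, the largest iron-sulfur subunit, had 29.9, 37.2, 37.2, 39.8 and 33.9 CPM in the IL-33 libraries, against 28.8, 37.5, 25.2 and 10.5 CPM in the PBS libraries. PBS replicate 4 was far below the other PBS libraries in Ndufs1, and edgeR gave 0.48 ± 0.31 (SE, adjusted p = 0.286). Ndufs3 and Ndufs7, also core subunits, had log2 fold changes of -0.06 and 0.06 and were not called.

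Among the accessory subunits of complex I, Ndufc2, part of the membrane arm, had 135, 119, 110.4, 144 and 149 CPM in the IL-33 libraries, against 51.8, 42.8, 49.9 and 52.6 CPM in the PBS libraries. The groups were far apart, and its log2 fold change of 1.41 ± 0.13 (SE, adjusted p = 0.000121) by edgeR carried the smallest adjusted p of all members. Ndufa11, a membrane-arm subunit, had 161, 198, 126, 159 and 152 CPM in the IL-33 libraries, against 67.3, 56.1, 103 and 81.6 CPM in the PBS libraries. The groups did not overlap, and edgeR gave 1.05 ± 0.19 (SE, adjusted p = 0.00409). Ndufb7 had 357, 467, 424, 387 and 364 CPM in the IL-33 libraries, against 262, 216, 270.0 and 223 CPM in the PBS libraries, with a log2 fold change of 0.72 ± 0.12 (SE, adjusted p = 0.00230) by edgeR. The other accessory subunits called higher were Ndufa2, Ndufa3, Ndufa9, Ndufa10, Ndufb5, Ndufb6, Ndufb9, Ndufc1, Ndufs4 and Ndufs5, with log2 fold changes between 0.38 (Ndufa2) and 0.76 (Ndufs5). At the other end, Ndufa5 had 61.9, 63.3, 56.8, 80.2 and 47.7 CPM in the IL-33 libraries, against 60.3, 51.8, 64.0 and 81.1 CPM in the PBS libraries. Its groups overlapped fully, with -0.05 ± 0.18 (SE, adjusted p = 0.860) by edgeR. Ndufb4 (-0.30) and Ndufa7 (-0.12) also had negative log2 fold changes and were not called. Among the members near the threshold, Ndufc1 had an adjusted p of 0.0430 and was called, and Ndufb8 had 0.0577 and was not, by edgeR.

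Complex II, succinate dehydrogenase, also belongs to the citric acid cycle. Sdhd, a membrane anchor of the quinone site, had 199, 234, 147, 225 and 183 CPM in the IL-33 libraries, against 87.1, 79.0, 88.1 and 109.9 CPM in the PBS libraries. Sdhb, the iron-sulfur subunit, had 442, 508, 493, 481 and 440.2 CPM in the IL-33 libraries, against 333, 250.2, 267 and 231 CPM in the PBS libraries. In both genes the groups were apart, with log2 fold changes of 1.12 ± 0.16 (SE, adjusted p = 0.00117) for Sdhd and 0.81 ± 0.12 (SE, adjusted p = 0.00140) for Sdhb by edgeR. Sdha, the flavoprotein that oxidises succinate, was not called and had 208, 266, 325, 239.7 and 271 CPM in the IL-33 libraries, against 298, 325, 287 and 225 CPM in the PBS libraries. Its groups overlapped, with -0.12 ± 0.15 (SE, adjusted p = 0.612) by edgeR. The second anchor, Sdhc, was not called either, at 0.39 ± 0.18 (SE, adjusted p = 0.135) by edgeR. Sdha and Sdhc are the longest transcripts of complex II in the annotation used, at 2900 and 3171 bases, beside 1142 for Sdhb and 1231 for Sdhd. With the length and GC trend removed, Sdhd stayed called at 0.88 (adjusted p = 0.00500, edgeR). In that fit Sdhb (0.34, adjusted p = 0.138), Sdhc (0.60, adjusted p = 0.0730) and Sdha (0.08, adjusted p = 0.647) were not called by edgeR.

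Complex III passes electrons from ubiquinol to cytochrome c. Uqcrfs1, the Rieske iron-sulfur protein, had 169, 171, 150.2, 215 and 175 CPM in the IL-33 libraries, against 57.3, 71.9, 96.7 and 97.6 CPM in the PBS libraries. Its values with IL-33 were all above those with PBS, with 1.12 ± 0.18 (SE, adjusted p = 0.00214) by edgeR. Uqcr10, a small subunit beside it, had 317, 452, 311, 340.4 and 296 CPM in the IL-33 libraries, against 155, 152, 188 and 179.6 CPM in the PBS libraries, with IL-33 replicate 2 above the other IL-33 libraries and a log2 fold change of 1.03 ± 0.14 (SE, adjusted p = 0.00108) by edgeR. Uqcrc2, a core protein on the matrix side, had 196, 205, 168, 243 and 178 CPM in the IL-33 libraries, against 148, 114, 119 and 120.1 CPM in the PBS libraries, and edgeR gave 0.66 ± 0.14 (SE, adjusted p = 0.00670). The fourth call, Uqcrq, was 0.79 ± 0.19 (SE, adjusted p = 0.0153) by edgeR. Uqcrb had the largest adjusted p of the complex, with 110.1, 96.8, 81.7, 124 and 102 CPM in the IL-33 libraries, against 85.4, 68.7, 84.5 and 94.2 CPM in the PBS libraries and a log2 fold change of 0.31 ± 0.15 (SE, adjusted p = 0.155) by edgeR. Uqcr11, Uqcrc1 and Uqcrh were positive and not called, at 0.49, 0.45 and 0.23. Cyc1, the cytochrome c1 of the complex, is not matched by the symbol rule and was called higher by 0.60 ± 0.14 (SE, adjusted p = 0.0120) by edgeR.

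Complex IV, cytochrome c oxidase, surrounds its mtDNA-encoded catalytic core with nuclear subunits, several of which exist as a ubiquitous form and a muscle, heart or lung form. Of 12 ubiquitous subunits, 11 were called higher, beside 13.7% of all tested genes. Cox5a, a matrix-side subunit, had 327, 332, 231, 329.9 and 293 CPM in the IL-33 libraries, against 84.4, 65.0, 122 and 94.2 CPM in the PBS libraries. The lowest IL-33 library was well above the highest PBS library, and its log2 fold change of 1.73 ± 0.19 (SE, adjusted p = 0.000324) by edgeR was the largest of any called member. Cox7a2 had 391, 433, 311, 482 and 405 CPM in the IL-33 libraries, against 131, 128, 189.8 and 158 CPM in the PBS libraries, with 1.41 ± 0.16 (SE, adjusted p = 0.000375) by edgeR. Cox4i1, which binds ATP as a regulator of the complex, had 688, 724, 582, 709 and 661 CPM in the IL-33 libraries, against 234, 242, 409.7 and 409 CPM in the PBS libraries. In Cox4i1 the PBS libraries fell into a lower and a higher pair, all below the IL-33 libraries, and edgeR gave 1.06 ± 0.19 (SE, adjusted p = 0.00393). Cox8a had 417, 505, 324, 425 and 379.6 CPM in the IL-33 libraries, against 152, 147, 217 and 206 CPM in the PBS libraries, with 1.19 ± 0.17 (SE, adjusted p = 0.00112) by edgeR. Cox6a1 had 393, 516, 383, 518 and 509.8 CPM in the IL-33 libraries, against 179.7, 190.3, 309 and 277 CPM in the PBS libraries, with 0.96 ± 0.19 (SE, adjusted p = 0.00581) by edgeR. Neither gene had overlapping groups. Cox7b, with a smaller change and little spread, had 176, 183, 181, 191 and 163 CPM in the IL-33 libraries, against 119, 108, 112 and 103 CPM in the PBS libraries, with 0.69 ± 0.09 (SE, adjusted p = 0.000795) by edgeR.

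Ndufa4, named for complex I but a subunit of complex IV and counted there, had 219, 189.9, 203, 193 and 175 CPM in the IL-33 libraries, against 151, 139, 165 and 120.2 CPM in the PBS libraries, a log2 fold change of 0.45 ± 0.12 (SE, adjusted p = 0.0208) by edgeR. Cox5b, Cox6b1, Cox6c and Cox7c completed the calls, with log2 fold changes of 1.05, 0.82, 0.57 and 0.53. Cox7a2l, counted here among the ubiquitous subunits of complex IV, was the only one of them not called. It had 226, 195, 266, 231 and 239.6 CPM in the IL-33 libraries, against 277, 245, 321 and 269 CPM in the PBS libraries. Its groups overlapped, with -0.26 ± 0.12 (SE, adjusted p = 0.127) by edgeR. Of the CPM of Cox7a2 and Cox7a2l together, Cox7a2l made up 36.6, 31.0, 46.1, 32.4 and 37.2% in the IL-33 libraries, against 67.9, 65.7, 62.8 and 63.0% in the PBS libraries. The groups did not overlap in this share. The tissue forms had at most 4.48 CPM in any library. Cox6b2, the testis form, had 2.27, 1.54, 1.02, 2.91 and 2.71 CPM in the IL-33 libraries, against 0, 1.39, 0.304 and 1.81 CPM in the PBS libraries, with 1.27 ± 1.03 (SE, adjusted p = 0.406) by edgeR. Cox7a1, the muscle form of Cox7a2, had 0.905 to 3.62 CPM with IL-33 and 0 to 0.963 CPM with PBS and was not called. Cox4i2 had 0.0465 to 0.442 CPM with IL-33 and 0 to 1.62 CPM with PBS, Cox6a2 had at most 0.608 CPM with IL-33 and 0 with PBS, and neither had enough counts for a test. Cox8b and Ndufa4l2 had no count in any IL-33 library and appeared in PBS replicate 4, at 0.477 and 4.48 CPM.

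**Figure D4:**
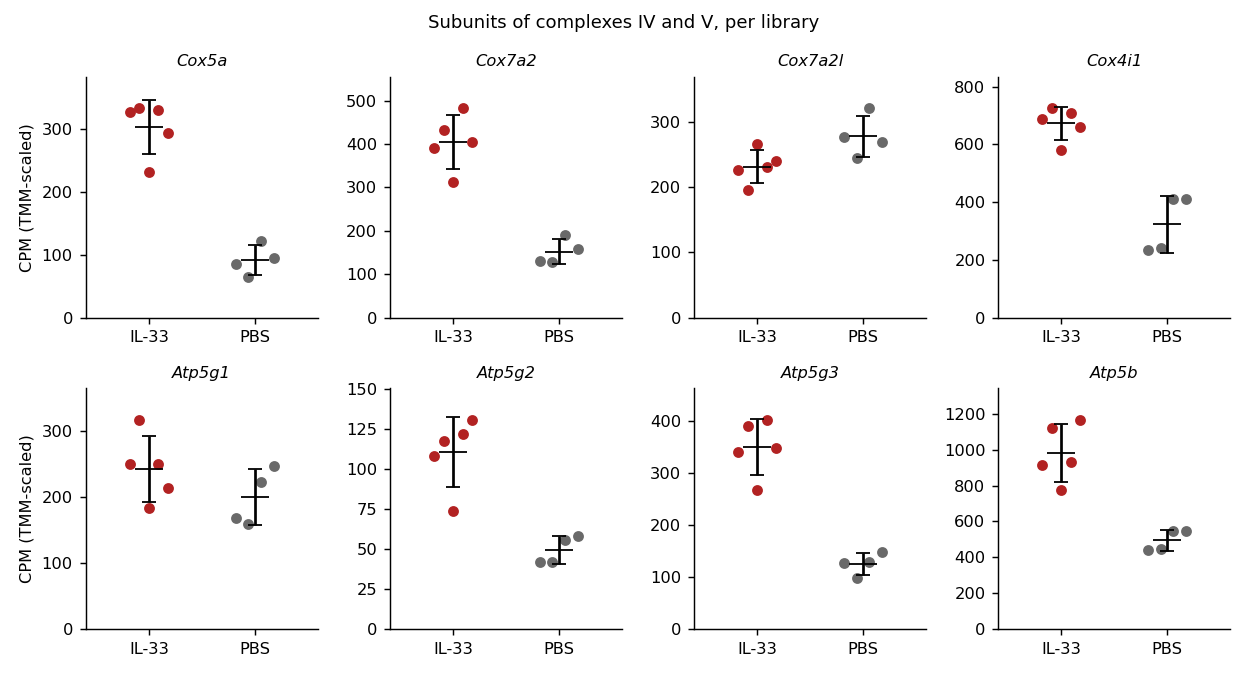
CPM (TMM-scaled) of 8 subunits of complexes IV and V, 1 point per library with mean and SD, IL-33 left of PBS, each axis starting at 0. Cox5a, Cox7a2, Cox4i1, Atp5g2, Atp5g3 and Atp5b show no overlap between groups, whereas Cox7a2l and Atp5g1 overlap.

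In complex V all 5 subunits of the F1 head were called higher, beside 13.7% of all tested genes. Their log2 fold changes lay between 0.98 and 1.08. Atp5a1, the alpha subunit, had 670.2, 753, 587, 614 and 665 CPM in the IL-33 libraries, against 295, 303, 374 and 359.8 CPM in the PBS libraries. Atp5b, the catalytic beta subunit, had 913, 1123, 772, 933 and 1166 CPM in the IL-33 libraries, against 442, 445, 545 and 547 CPM in the PBS libraries. Atp5c1, the gamma subunit of the central stalk, had 598, 514, 494, 611 and 554 CPM in the IL-33 libraries, against 264, 270.0, 328 and 247 CPM in the PBS libraries. In all 3 genes every IL-33 library lay above every PBS library. The log2 fold changes were 0.98 ± 0.11 (SE, adjusted p = 0.000389) for Atp5a1, 0.99 ± 0.14 (SE, adjusted p = 0.00127) for Atp5b and 1.00 ± 0.11 (SE, adjusted p = 0.000365) for Atp5c1 by edgeR. Atp5d and Atp5e, the delta and epsilon subunits, had log2 fold changes of 1.08 and 1.03.

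The membrane rotor, the peripheral stalk and the small membrane subunits gave 10 calls among 11 genes, all higher, with a median of 0.80. Over all tested genes 13.7% were called higher. A trio of these genes, Atp5g1, Atp5g2 and Atp5g3, encode the same mature ring protein behind different import signals. Atp5g3 had 340.3, 392, 267, 403 and 349 CPM in the IL-33 libraries, against 127, 97.1, 129 and 148 CPM in the PBS libraries. The groups were far apart, with 1.48 ± 0.16 (SE, adjusted p = 0.000281) by edgeR. Atp5g2 had 108, 118, 73.9, 122 and 131 CPM in the IL-33 libraries, against 41.9, 42.1, 55.8 and 58.0 CPM in the PBS libraries, with 1.16 ± 0.19 (SE, adjusted p = 0.00229) by edgeR. Atp5g1 had 249.99, 317, 183, 251 and 214 CPM in the IL-33 libraries, against 169, 159, 223 and 247 CPM in the PBS libraries, with overlapping groups and 0.28 ± 0.19 (SE, adjusted p = 0.303) by edgeR. Of the CPM of the ring genes together, Atp5g1 made up 35.8, 38.4, 34.9, 32.3 and 30.8% in the IL-33 libraries, against 49.98, 53.4, 54.7 and 54.6% in the PBS libraries. Atp5g3 made up 48.7, 47.4, 51.0, 51.9 and 50.3% in the IL-33 libraries, against 37.6, 32.5, 31.6 and 32.6% in the PBS libraries. The 2 genes thus changed places as the larger contributor to the ring CPM, which is not scaled by length. The stalk genes Atp5o, Atp5f1, Atp5h and Atp5j had log2 fold changes of 0.71, 0.94, 0.91 and 0.83, and the membrane subunits Atp5l, Atp5j2, Atp5k and Atp5mpl had 0.54, 0.71, 0.75 and 0.80. Atpif1, the inhibitor of ATP hydrolysis by complex V, lies outside the symbol rule and had 159, 189, 170.3, 185 and 152 CPM in the IL-33 libraries, against 63.6, 41.5, 71.0 and 61.4 CPM in the PBS libraries, a log2 fold change of 1.53 ± 0.16 (SE, adjusted p = 0.000272) by edgeR. Usmg5, a small membrane subunit also outside the rule, was not called, at -0.36 ± 0.15 (SE, adjusted p = 0.108).

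Of the members that are not subunits, Atp5s, once described as a coupling factor of the synthase, had 5.75, 3.44, 4.32, 3.81 and 3.24 CPM in the IL-33 libraries, against 11.8, 19.8, 6.18 and 11.4 CPM in the PBS libraries. All IL-33 values were below all PBS values, as in 10.8% of all tested genes, and edgeR gave -1.58 ± 0.36 (SE, adjusted p = 0.0115). Ndufaf7, a methyltransferase that acts during the assembly of complex I, had 42.5, 47.9, 65.2, 48.4 and 64.9 CPM in the IL-33 libraries, against 46.6, 31.3, 21.9 and 30.4 CPM in the PBS libraries. PBS replicate 1 lay within the IL-33 range, and edgeR gave 0.72 ± 0.23 (SE, adjusted p = 0.0481). The other assembly factors Ndufaf1 to Ndufaf6 and Ndufaf8 had log2 fold changes between -0.35 (Ndufaf8) and 0.54 (Ndufaf5), none called, also at an unadjusted p below 0.05 and by the DESeq2 Wald test or limma voom. Assembly factors of other names gave no call by edgeR for complexes I (9 tested), II (4), III (6) and V (4). At an unadjusted p below 0.05 the counts were 3 higher and 1 lower, and the DESeq2 Wald test and limma voom each called 0 higher and 1 lower. For complex IV, 3 of 22 were called higher, namely Higd2a (0.78), Pet100 (0.58) and Cmc2 (0.63), and 0 lower by edgeR. For complex IV, 1 was lower at an unadjusted p below 0.05, by the DESeq2 Wald test and by limma voom. Cmc2 lost its call without any 1 of 7 libraries and Pet100 without any 1 of 3, at adjusted p-values of 0.0528 to 0.124 and 0.0550 to 0.0566. The 25.2% of all tested genes called in either direction is the background for these counts.

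Of the 13 subunits encoded in mtDNA, the partners of these nuclear subunits, 0 were called higher and 2 lower (15.4%) by edgeR, both of complex I, beside 11.6% of all tested genes called lower. At an unadjusted p below 0.05 the counts were 0 higher and 6 lower, and the DESeq2 Wald test called 0 higher and 6 lower. mt-Nd2 had 351, 167, 230.3, 275 and 261 CPM in the IL-33 libraries, against 542, 379, 644 and 634 CPM in the PBS libraries, with -1.10 ± 0.22 (SE, adjusted p = 0.00619) by edgeR, and mt-Nd1 gave -0.67 ± 0.19 (SE, adjusted p = 0.0273). The call of mt-Nd1 was lost without IL-33 replicate 2, 3 or 5 or PBS replicate 3 or 4, at adjusted p-values between 0.0529 and 0.0684. The catalytic subunits mt-Co1, mt-Co2 and mt-Co3 of complex IV had log2 fold changes of -0.16, 0.27 and 0.05, and mt-Atp6 and mt-Atp8 of complex V had -0.13 and -0.07. The summed CPM of the 13 genes was 13922, 8895, 13435, 13909 and 11999 in the IL-33 libraries, against 15191, 12273, 15627 and 18872 in the PBS libraries, with overlapping groups. The summed CPM of nuclear subunits over that of mtDNA-encoded subunits was 1.29, 2.26, 1.29, 1.36 and 1.46 in the IL-33 libraries, against 0.737, 0.858, 0.832 and 0.649 in the PBS libraries, and the groups did not overlap. PBS replicate 4, rich in acinar RNA, had the lowest ratio and, on the TMM scale, the highest mtDNA-encoded sum. As a share of all counts, however, the 13 genes took 1.00% in that library, against 1.43 to 1.71% in the other PBS libraries. With IL-33 they took 0.968 to 1.46%.

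Genes around the chain were mixed. Over all tested genes, 13.7% were called higher and 11.6% lower. The ADP/ATP carriers Slc25a4 (1.36) and Slc25a5 (0.84) and the uncoupling protein gene Ucp2 (1.53) were called higher, whereas the phosphate carrier Slc25a3, which brings phosphate to complex V, was called lower (-0.71). Slc25a3 had 813, 713, 771, 704 and 701 CPM in the IL-33 libraries, against 1395, 1520.2, 1032 and 903 CPM in the PBS libraries. Cycs, somatic cytochrome c, was called higher (0.62). Of 13 genes for ubiquinone synthesis and binding, Coq3, a methyltransferase of the pathway, was called higher (2.29) and Coq10b lower (-0.85). Among other entries of electrons to ubiquinone, Etfa (0.33) and Etfb (0.84), which carry electrons from fatty acid oxidation, were called higher, and Gpd2 (-0.89) and Sqor (-3.64) lower. The calls of Cycs, Etfa, Gpd2 and Sqor were each lost without at least 1 library, at adjusted p-values of up to 0.0656, 0.124, 0.0530 and 0.0655.

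Of 11 tested regulators of respiratory genes, Hif1a was called higher (0.62) and Pprc1, a coactivator of the PGC-1 family, lower (-1.10), shares of 9.09% each, beside 13.7% higher and 11.6% lower over all tested genes. The genes for the factors whose letters were searched in the promoters were not called: Nrf1 had 45.2, 49.8, 59.0, 31.3 and 62.4 CPM in the IL-33 libraries, against 54.4, 72.3, 60.1 and 47.0 CPM in the PBS libraries, with -0.24 ± 0.21 (SE, adjusted p = 0.451) by edgeR. Gabpa (0.03) and Yy1 (-0.16) were also not called, nor were Esrra (-0.15) and Ppargc1b (-1.24), and Ppargc1a had too few counts for a test. Of 11 genes for mtDNA copying and expression 0 were called higher by edgeR, the DESeq2 Wald test or limma voom, or at an unadjusted p below 0.05. Polg2, the accessory subunit of the mtDNA polymerase, was called lower (-1.09). Tfam, which packages mtDNA, had 0.11 ± 0.32 (SE, adjusted p = 0.832) by edgeR. Hif1a, Pprc1 and Polg2 lost their calls when single libraries were left out, without any 1 of 6, 8 and 2 libraries, at adjusted p-values of up to 0.0831, 0.104 and 0.0614.

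**Figure D5:**
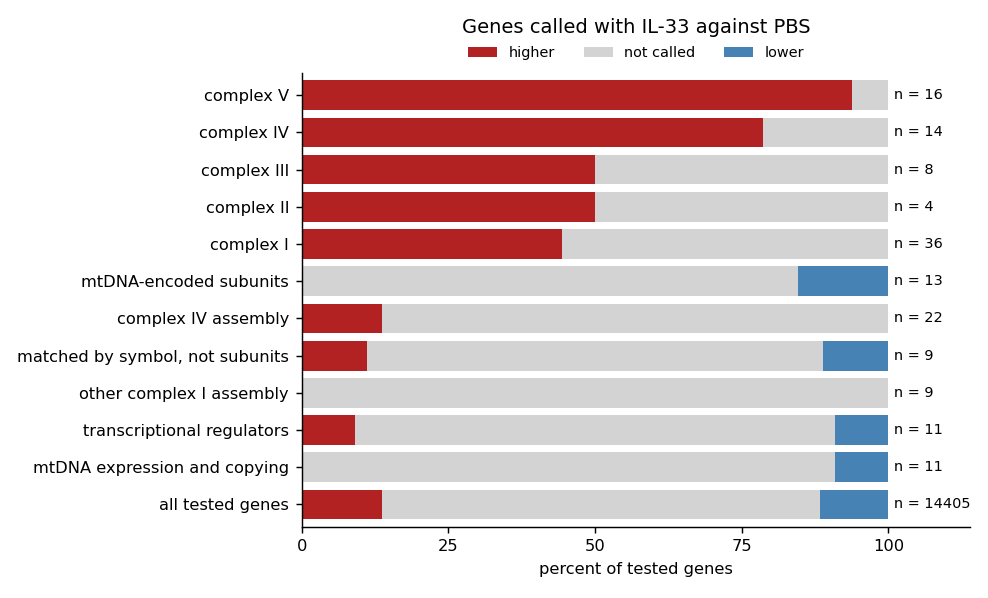
Percent of tested genes called higher (red), not called (grey) or called lower (blue) with IL-33 against PBS by edgeR, for complexes I to V, mtDNA-encoded subunits and companion lists, with the number tested at the right. Complex V has 93.8% called higher and the mtDNA-encoded subunits none, beside 13.7% of all tested genes.

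Several members share sequence with other loci. The 10 pseudogenes left out summed to a mean of 144 CPM with IL-33 and 115 CPM with PBS, against 18374 and 11746 CPM for the subunits. Atp5l2-ps (0.52) and Ndufa11b (1.02) were called higher, as were Atp5l and Ndufa11, and Ndufb4c had a negative change (-0.32), as did Ndufb4, and reads of such near-identical copies cannot be told apart here. Whether reads were counted by strand is not given in the labels. Exons of Atp5j overlap those of Gabpa on the opposite strand over 12.7% of their length, Ndufb6 overlaps Smim27 over 39.0% and Ndufa13 overlaps Tssk6 over 30.0%, all on opposite strands. Unless strand was used in counting, reads there cannot be assigned to one gene.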

How the data were processed

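The authors deposited whole-number read counts by Ensembl gene ID, and their second table, of normalized values, was not used. The submitters' processing notes name GRCm38.p6, DESeq2, Picard, STAR 2.7.7a, Salmon 1.6.0, Trimmomatic 0.39 and FastQC 0.11.9, without roles. Whether the counts are rounded Salmon estimates is not given there. A low-input kit was used, per the labels' protocols.

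Gene symbols came from GENCODE M21, which held 20607 of the 20732 IDs (99.4%). Lengths are of the shortest APPRIS principal transcript, so values per kilobase depend on that choice. The main test was the edgeR quasi-likelihood F-test (edgeR 4.0.16, R 4.3.3) with TMM scaling, a robust fit, a filterByExpr minimum of 10, Benjamini-Hochberg adjustment over all genes tested and a two-sided threshold of 0.05. DESeq2 1.42.0 and limma 3.58.1 served as alternatives. The fit was tested on simulated data. No 2 libraries of a group were duplicates (chi-square per degree of freedom at least 52.6 in all 16 pairs). The counts carry no molecular identifiers, so depth limits counting error only.

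The members, gene lists and alternatives were chosen with earlier results of these data known. The rule gave per-library values to the subunits with the smallest adjusted p in each complex (4 in complex I, 2 in II, 3 in III, IV and V), to the member with the largest adjusted p in each complex, to members called lower and to 18 members listed by name. Any member may be named, and of the other lists the called genes and those of known role.

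Motifs were searched in RefSeq promoter windows on GRCm38.p6, matched by symbol or Ensembl ID. A search for the TATA box letters TATAAA gave 9.09% of subunit genes and 15.7% of all genes. Values of 1 complex I gene are not reported here.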

Additional observations from a re-analysis of the deposited data

Results flagged for a closer look

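In each of 77 groups of 4 or 5 libraries the highest and lowest values were compared with the rest of the group, and 4 stood far from the others. Chance flags about 1 in 20 such groups. In IL-33 replicate 2, Uqcr10 of complex III had 452.3 CPM, beside 296.5 to 340.4 CPM in the other IL-33 libraries, and all of these were above the PBS libraries. In the same library the summed CPM of nuclear subunits over mtDNA-encoded subunits was 2.26, beside 1.29 to 1.46 in the other IL-33 libraries, and its mtDNA-encoded sum was 8895 CPM, the lowest of the 9 libraries. The remaining pair rest on few counts. Cox4i2 had 1.62 CPM in PBS replicate 4, the library rich in acinar RNA, beside 0 to 0.254 CPM in the other PBS libraries. Cox6a2 had 0.608 CPM in IL-33 replicate 1, beside 0 to 0.133 CPM in the other IL-33 libraries. What part acinar RNA has in the value of Cox4i2 was not tested.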

How the results depend on the processing

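The members called higher were 49 in the main test, 29 with the length and GC trend removed, 27 with library size alone and 23 when IL-33 replicates 1, 2 and 3, rich in beta-globin, were left out. The median log2 fold change of all members was 0.52 in the main test and 0.20, 0.66 and 0.54 in these settings, in that order. It was thus smaller with the trend removed, but not with library size alone or without those IL-33 replicates. For complex I these settings gave 5, 5 and 4 in place of 16 and for complex II 1, 1 and 2 in place of 2. Without those IL-33 replicates complexes III, IV and V gave 2, 6 and 9 in place of 4, 11 and 15. Library size alone gave 7 in complex IV and moved the median of all tested genes from -0.05 to 0.08 on the log2 scale. The members called lower, 1 in the main test, were 2 with the DESeq2 Wald test, 9 with the trend removed and 0 without the 3 IL-33 replicates, beside 11.6% of all genes lower in the main test and 16.2%, 10.1% and 4.31% in these. The replicate numbers did not pair the libraries (correlations of their deviations -0.0263, -0.0419, -0.0163 and 0.0713). With the replicate block, in which number 5 occurs with IL-33 alone, 31 members were called higher and 0 lower, with 4 in complex I, beside 5.49% of all genes higher. In both fits with 0 lower, made with edgeR alone, 1 member was lower at an unadjusted p below 0.05. Leaving out each library in turn gave 43 to 48 members higher and 1 lower, with 12 to 16 in complex I, 2 in II, 4 to 5 in III, 10 to 11 in IV and 15 in V. The cause of these shifts was not tested.

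Over 69 gene results and their alternatives, 1158 values kept both direction and call status. Of the others, 100 lost the call of the main test, 25 gained a call and 26 changed sign, all 26 of genes not called in the main test. With the trend removed the log2 fold changes of Sdha, Uqcrb, Atp5g1, Dmac1, Uqcc3 and Uqcc2 were 0.0826, -0.0327, -0.28, -0.11, -0.0106 and -0.23. Ndufa5 was 0.0495 with the acinar share as a covariate, 0.13 with library size alone, 0.0353 with the replicate block and 0.0021 without the 3 IL-33 replicates. Gabpa was -0.0066 with DESeq2, -0.0057 with RLE factors, -0.10 with the acinar covariate and -0.0512 with limma voom, and Esrra was 0.15 with the replicate block. With each library left out in turn, log2 fold changes ran from -0.18 to 0.0702 for Ndufa5, -0.21 to 0.30 for Gabpa, -0.36 to 0.29 for Esrra, -0.14 to 0.35 for Tfam, -1.68 to 0.0551 for Tmem186 and -0.0822 to 0.20 for Sdhaf2.

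Low counts limit the tissue forms of complex IV, 4 of which could not be tested.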
